A study of Mus musculus with 6 samples.

Results

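The genes described here are 8 members of the semaphorin, plexin and neuropilin families, chosen by symbol from 19057 gene symbols with a probe on the array. They are Sema7a, the class 4 semaphorins Sema4a, Sema4b, Sema4c and Sema4d, the receptors Plxnb2 and Plxnd1, and the co-receptor Nrp1. The choice was made around Sema7a, whose strain difference in these arrays was already known, so the strain differences of the set are given as a description. Freshly isolated splenic B cells came from 3 Sle2 mice (genotype B6.Sle2) and 3 B6 mice (wild type), with 1 Illumina BeadChip array per mouse. Both strains share the C57Bl/6 background, and Sle2 mice carry in addition a lupus susceptibility segment of chromosome 4 that came from NZM2410 mice. The labels give no age, sex or segment borders. A congenic segment holds many genes at once, so a difference between the strains is not tied to any one of them. The members lie on chromosomes 9, 3, 7, 1, 13, 15, 6 and 8, and none lies on chromosome 4.

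Semaphorins are cell surface or secreted ligands first described as guidance cues for growing axons, and plexins are their main receptors. A plexin that binds a semaphorin acts on small GTPases and so on adhesion and the cytoskeleton, and neuropilins serve as co-receptors for the secreted class 3 ligands. In the immune system, the membrane-bound class 4 semaphorins and the lipid-anchored Sema7a carry signals between lymphocytes, dendritic cells and macrophages.

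The annotation names 15 probes for the 8 genes. A probe entered the fit when its detection p-value was under 0.05 on at least 3 of the 6 arrays, which 12 of the 15 did, and 7 of the 8 genes were tested. Values are normalized log2 intensities, on which a difference of 1 is a 2-fold difference. They compare mice for 1 probe and are not levels that can be set against another gene's. In bulk RNA, fewer cells of a type and less RNA per cell cannot be told apart. Across the arrays, between 17417 and 17923 of 45281 probes were detected. Of the 6 B cell markers with a named probe (Ms4a1, Cd79b, Pax5, Cd22, Blk and Ebf1), all were tested. Their summed level, on the linear intensity scale, was 22217 to 22742 in Sle2 mice and 22138 to 24744 in B6 mice. Most of that sum is Cd79b, which was lower in every Sle2 mouse (-0.15 on the log2 scale), while Cd22 was higher in every Sle2 mouse (0.17). Of the 6 differences, 4 were positive and 2 negative. The T cell markers Cd4 and Cd8a were detected on no array, while Cd8b1, Cd3d, Cd3e, Cd3g and Zap70 were detected on all 6 arrays.

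Sequence is shown for 2 genes because they had the largest strain difference, Sema7a among the tested members and Sema5a among the other tested semaphorins. Each gives the 250 bases before the RefSeq gene start in GRCm38.p6, the C57BL/6J reference, from 5′ to 3′. The Sema7a stretch is chr9:57939862-57940111 and the Sema5a stretch is chr15:32244563-32244812, both on the plus strand. Capitals mark GC boxes, the letters GGGCGG or CCGCCC on the other strand.
Sema7a: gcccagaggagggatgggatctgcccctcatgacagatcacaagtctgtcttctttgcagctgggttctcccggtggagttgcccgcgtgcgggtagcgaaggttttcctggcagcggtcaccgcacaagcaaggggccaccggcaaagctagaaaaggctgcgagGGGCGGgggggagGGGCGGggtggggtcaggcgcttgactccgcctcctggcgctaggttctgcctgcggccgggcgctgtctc
Sema5a: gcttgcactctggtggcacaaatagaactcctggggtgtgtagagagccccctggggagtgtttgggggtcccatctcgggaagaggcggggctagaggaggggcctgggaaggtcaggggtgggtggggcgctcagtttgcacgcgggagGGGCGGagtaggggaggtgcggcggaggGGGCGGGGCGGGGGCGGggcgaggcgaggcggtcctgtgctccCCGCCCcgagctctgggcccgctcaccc
The Sema7a stretch held 2 GC boxes, which began 84 and 71 bases before the start, and the Sema5a stretch held 5, some of them overlapping. All 8 members had a GC box in at least 1 of their 16 annotated stretches (13 of 16 stretches), and 32.7% of the 32851 stretches in the table had one. The Sema7a stretch had no match to the other motifs searched on both strands, which were CACGTG (6.02% of all stretches), CCAAT (33.8%), TATAAA (12.4%), TGANTCA (6.75%) and the octamer ATGCAAAT (1.6%). Its G and C content was 66.4%, against a median of 52.4% over all stretches. A letter match is not evidence of binding, and the NZM2410 sequence was not analysed here.

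Sema7a, a semaphorin held in the membrane by a glycolipid anchor and a ligand of plexin C1 and of the integrin formed by Itga1 and Itgb1, was higher in Sle2 B cells. Its brightest probe stood at 9.55, 9.64 and 9.58 in Sle2 mice 1, 2 and 3, against 8.74, 8.88 and 8.08 in B6 mice 1, 2 and 3. The strains did not overlap: the Sle2 values were close together, and B6 mouse 3 was well below B6 mice 1 and 2. The means were 9.59 ± 0.05 in Sle2 and 8.57 ± 0.43 in B6 (SD, n = 3 each). The difference was 1.02 on the log2 scale (SE 0.191), a 2.03-fold higher level in Sle2. In limma's fit over the 17861 kept probes it had an adjusted p of 0.0493, just under the threshold of 0.05, and ranked 95th of the 97 called genes by p. Those 97 are 1.04% of the 9297 tested genes, with 61 (0.656%) higher and 36 (0.387%) lower in Sle2. A difference of this size or more in the same direction was reached by 17 tested genes, Sema7a included. Without B6 mouse 3 the difference was 0.78 (SE 0.109, adjusted p = 0.0367).

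**Figure D1:**
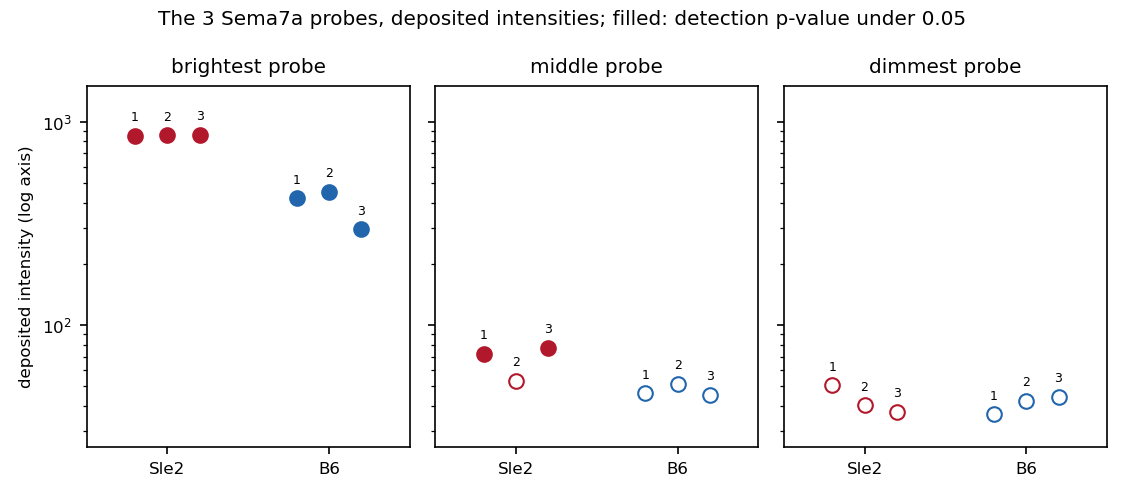
Deposited intensities, before normalization and on a log axis, of the 3 Sema7a probes in 3 Sle2 and 3 B6 mice, with 1 point per mouse and its number above it. Filled points have a detection p-value under 0.05, and the brightest probe was detected on all 6 arrays with every Sle2 mouse above every B6 mouse.

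The deposited intensities of this probe, before any normalization, were 855, 860 and 862 in the Sle2 mice and 421, 454 and 296 in the B6 mice. The other Sema7a probes were close to background. The middle one was at 5.14, 4.59 and 5.44 in Sle2 mice, against 4.43, 4.64 and 4.43 in B6 mice. It was detected in Sle2 mice 1 and 3 and in no B6 mouse, and the strains overlapped in Sle2 mouse 2. The dimmest one was detected on no array, with means of 4.34 ± 0.10 in Sle2 and 4.35 ± 0.08 in B6 (SD, n = 3 each). All 3 probes carry the same RefSeq transcript in the annotation. The fitted strain difference of Sema7a rests on its brightest probe alone.

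**Figure D2:**
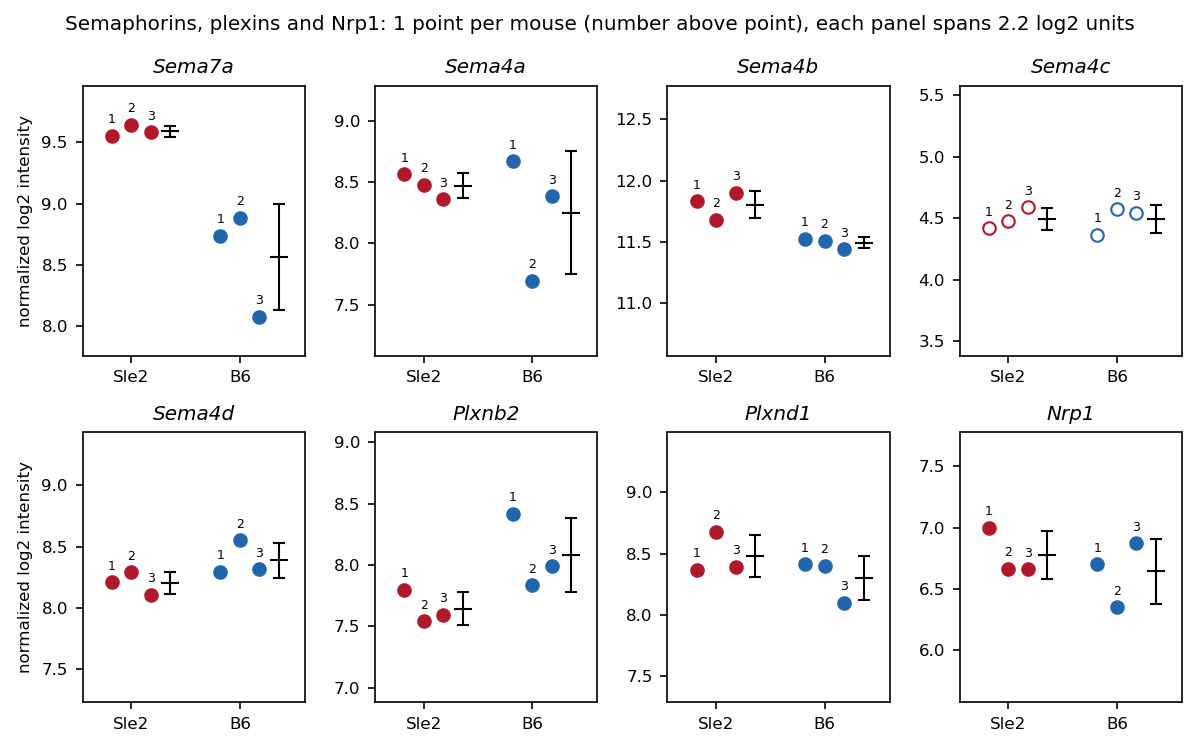
Normalized log2 intensity of the brightest probe of each of the 8 members in 3 Sle2 mice (left) and 3 B6 mice (right). Points are single mice with their numbers, filled where the detection p-value was under 0.05, and bars give the mean and SD of the 3 mice. All panels span the same number of log2 units, and Sema7a shows the largest separation.

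None of the 3 tested class 4 semaphorins was called by limma: the differences were 0.31 for Sema4b, 0.22 for Sema4a and -0.19 for Sema4d, and Sema4c was not detected. Sema4b, a transmembrane ligand, was at 11.83, 11.68 and 11.90 in Sle2 mice and at 11.53, 11.51 and 11.44 in B6 mice. The strains did not overlap, and the difference was 0.31 (SE 0.0987, adjusted p = 0.176). Its second probe, which is annotated to another transcript record, was at 7.16 ± 0.11 in Sle2 and 7.07 ± 0.12 in B6 (SD, n = 3 each). That probe differed by 0.09 (SE 0.108), with overlap between the strains.

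Sema4d, also known as CD100, is a ligand of plexin B1 and plexin B2 and binds Cd72 on B cells. It was at 8.21, 8.29 and 8.11 in Sle2 mice and at 8.29, 8.55 and 8.32 in B6 mice. Every Sle2 mouse was below every B6 mouse, by a narrow margin, and the difference was -0.19 (SE 0.109, adjusted p = 0.417). It was -0.10 without B6 mouse 2, the highest, and -0.04 with arrays scaled to equal medians. Sema4a, a costimulatory ligand of T cells that binds plexin D1 and plexins of class B, was at 8.56, 8.48 and 8.36 in Sle2 mice. In B6 mice it was at 8.67, 7.70 and 8.38. B6 mouse 2 was low, and B6 mice 1 and 3 lay above or among the Sle2 mice. The difference was 0.22 (SE 0.218, adjusted p = 0.639), and -0.06 without B6 mouse 2. Sema4c, a ligand of plexin B2, has 1 probe, which was detected on no array and averaged 4.49 ± 0.09 in Sle2 and 4.49 ± 0.11 in B6 (SD, n = 3 each). Whether that probe is insensitive or the transcript is scarce cannot be told apart.

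Sema7a was then set against this class array by array. For each array, the mean of Sema4a, Sema4b and Sema4d was subtracted from Sema7a. The result was 0.02, 0.16 and 0.12 in Sle2 mice and -0.76, -0.37 and -1.30 in B6 mice, with no overlap. The strain difference of this value was 0.91 on the log2 scale, with SDs of 0.07 in Sle2 and 0.47 in B6. It was not tested, since the genes were chosen with these values known. The class 4 mean by itself was 9.49 ± 0.04 in Sle2 and 9.38 ± 0.12 in B6 (SD, n = 3 each), a difference of 0.11. The quantity compares strain differences and says nothing about whether Sema7a or class 4 transcripts are more abundant. It was 0.66 without B6 mouse 3.

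None of the 3 receptors was called by limma. Plxnb2, the plexin that binds Sema4c and Sema4d and is also present on macrophages, was at 7.80, 7.54 and 7.59 in Sle2 mice. In B6 mice it was at 8.42, 7.83 and 7.99. All Sle2 mice were below all B6 mice, although Sle2 mouse 1 and B6 mouse 2 were nearly level, and the difference was -0.44 (SE 0.157, adjusted p = 0.212). Without B6 mouse 1, the highest, it was -0.27.

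Plxnd1, a receptor of Sema3e and Sema4a, had 3 kept probes, and in all of them the strains overlapped. Its brightest probe was at 8.37, 8.68 and 8.39 in Sle2 mice and at 8.42, 8.40 and 8.10 in B6 mice. The 3 probes differed by 0.18 (SE 0.130), 0.05 (SE 0.134) and -0.03 (SE 0.106). Adjusted p was 0.522 for the brightest, whose difference was 0.07 without B6 mouse 3 and 0.08 without Sle2 mouse 2, and 0.33 with equal medians. All 3 estimates lay within 2 SE of 0.

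Nrp1, a co-receptor of class 3 semaphorins and of vascular endothelial growth factor, also marks plasmacytoid dendritic cells and a part of regulatory T cells. Its brightest probe was at 7.0, 6.67 and 6.66 in Sle2 mice and at 6.70, 6.35 and 6.87 in B6 mice. The strains overlapped, with a difference of 0.13 (SE 0.155, adjusted p = 0.698) that was -0.01 without B6 mouse 2. Its other kept probes differed by 0.13 (SE 0.160) and -0.15 (SE 0.189).

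In all, 1 of the 7 tested members was called by limma, Sema7a, against 1.04% of all tested genes. Another count, of members with an unadjusted p under 0.05, was 3 (Sema7a, Sema4b and Plxnb2), against 16.9% of all tested genes. The strains did not overlap in 4 of 7 members, 2 higher and 2 lower in Sle2, where 24.2% of all tested genes showed no overlap (14.7% higher and 9.45% lower). The members' median difference was 0.18, beside 0.02 over all tested genes. Because the set was chosen on this contrast, nothing is read from these counts.

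**Figure D3:**
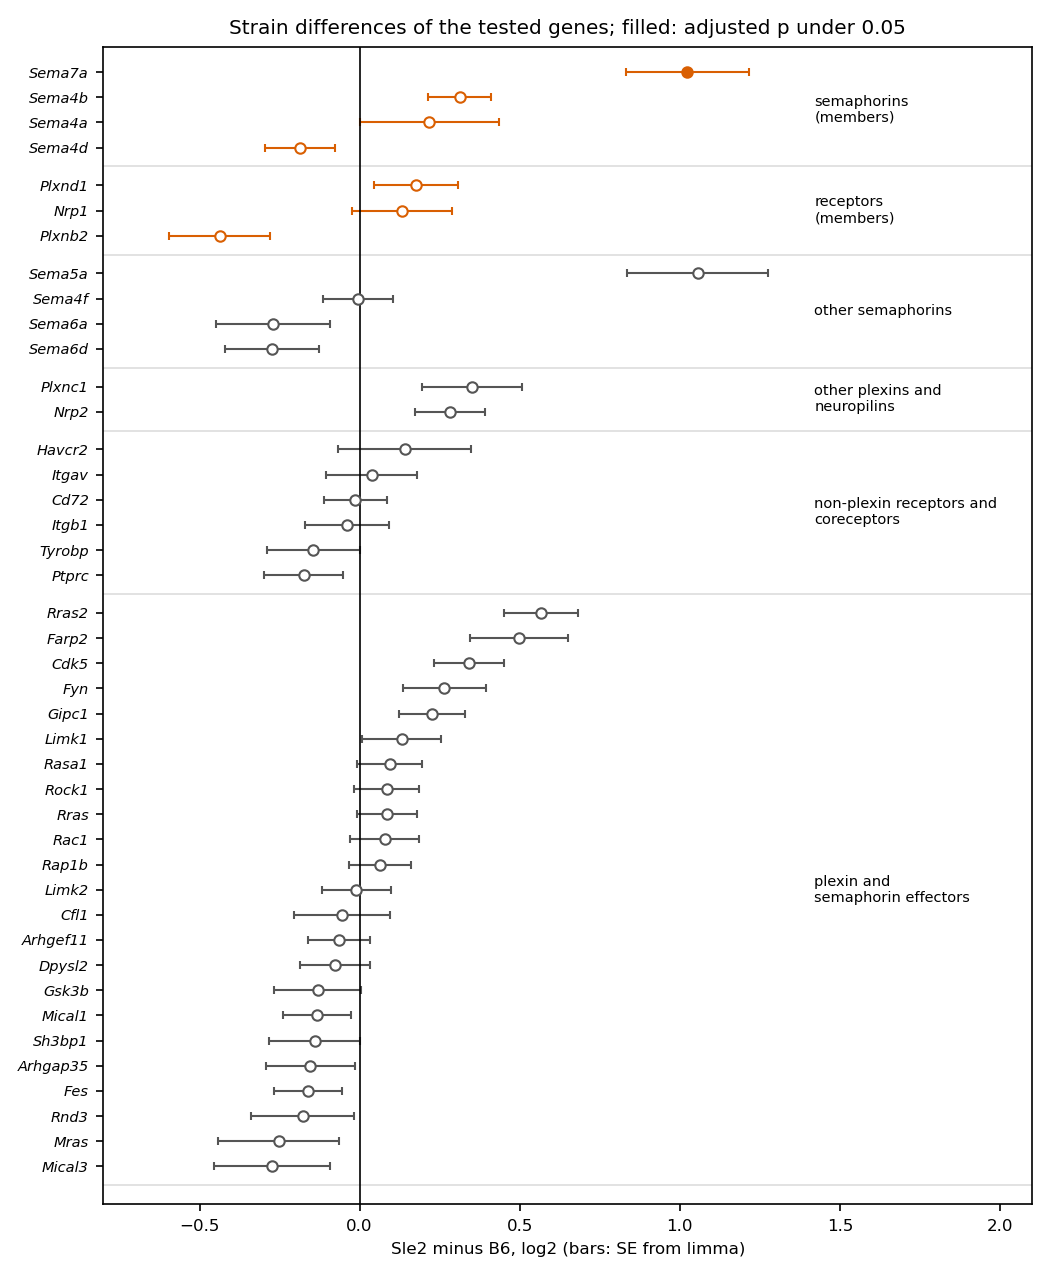
Strain difference (Sle2 minus B6, log2 units), bars giving the SE from limma, for the 7 tested members (orange) and the 35 tested genes of the wider pathway (grey). Filled points had an adjusted p under 0.05, which holds for Sema7a, and Sema5a shows a difference of similar size without passing.

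The wider pathway list held 70 genes taken by family and function, of which 67 had a probe and 35 were tested. In limma's fit 0 of the 35 were called, against 1.04% of all tested genes. An unadjusted p under 0.05 was reached by 5, all higher in Sle2, against 16.9% of all tested genes in either direction. The strains did not overlap in 6 of the 35, all 6 higher in Sle2. Over all tested genes, 14.7% were higher and 9.45% lower without overlap. Both counts include Nrp2, which entered the fit through its Sle2 arrays alone, and neither is read as a result of the pathway. The list's median was -0.01, with 16 positive and 19 negative differences. Sema5a and Rras2 were the 2 called when arrays were scaled to equal medians, when the background was left in, and in the deposited quantile-normalized values.

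Of the other semaphorins, 4 of 14 with a probe were tested. Sema5a, a transmembrane semaphorin with thrombospondin repeats, was at 8.62, 8.91 and 8.88 in Sle2 mice and at 7.61, 8.30 and 7.35 in B6 mice. The strains did not overlap, and the 2.08-fold difference of 1.06 (SE 0.220) had an adjusted p of 0.0721. Its second kept probe differed by 1.02 (SE 0.227, adjusted p = 0.0827), and its 3 remaining probes were not kept. Sema5a was called without B6 mouse 2, its highest B6 mouse (1.33, adjusted p = 0.0074). Sema6d (-0.27, SE 0.146), Sema6a (-0.27, SE 0.179) and Sema4f (-0.01, SE 0.108) did not pass. With single mice left out, Sema6d ran from -0.38 to -0.14 and Sema6a from -0.46 to -0.16. The 7 genes of the secreted class 3 had 20 probes, of which 1 was detected, on a single array.

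Plxnc1, the plexin receptor of Sema7a, was at 5.98, 6.01 and 6.41 in Sle2 mice and at 5.65, 6.05 and 5.65 in B6 mice. It differed by 0.35 (SE 0.157, adjusted p = 0.299), with overlap, and its second kept probe by 0.04 (SE 0.108). Without Sle2 mouse 3, its highest, the first was 0.21. Nrp2, a co-receptor related to Nrp1, has 1 kept probe, which was detected in 3 Sle2 mice and in no B6 mouse, at 5.14, 5.03 and 4.91 in Sle2 mice and at 4.68, 4.89 and 4.66 in B6 mice. That probe passed the filter through its Sle2 arrays alone, all close to background, so the Nrp2 difference is given only as a description. The lower bound on the fold, set by the lowest signal of a detected probe, was 1.07, and limma did not call Nrp2 (adjusted p = 0.241). Of its probes that were not kept, 1 was detected in B6 mouse 2 and in no Sle2 mouse. The other 6 plexins with a probe had 9 probes, and none was detected on any array.

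The non-plexin receptors showed no called gene among 6 tested, and their differences ran from -0.18 to 0.14. Cd72, the receptor of Sema4d on B cells, which lies on chromosome 4, differed by -0.01 (SE 0.0974, adjusted p = 0.96). Of the integrin that binds Sema7a, the Itgb1 chain differed by -0.04 (SE 0.130) and, at its second kept probe, by -0.29 (SE 0.168), and the 2 probes of the Itga1 chain were detected on no array. Havcr2 (0.14), an inhibitory receptor of T cells and myeloid cells, Tyrobp (-0.14), an adaptor of myeloid receptors, and Ptprc (-0.18), the leukocyte phosphatase CD45, did not pass. The other kept probes of Ptprc differed by 0.01 and 0.06.

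Among the 23 tested effectors, 11 differences were positive and 12 negative. None was called by limma, and 3 had an unadjusted p under 0.05, against 16.9% of all tested genes. Rras2, a Ras family GTPase, was at 6.93, 7.20 and 7.21 in Sle2 mice and at 6.67, 6.53 and 6.43 in B6 mice. Its strains did not overlap, and the difference was 0.57 (SE 0.116, adjusted p = 0.0707). Farp2, a guanine nucleotide exchange factor that binds plexin A proteins, differed by 0.50 (SE 0.153, adjusted p = 0.169). Cdk5 (0.34, SE 0.110), a kinase of the axon guidance response, and Gipc1 (0.23, SE 0.102), an adaptor that binds Nrp1 and plexin D1, also showed no overlap and did not pass. The kept probes of Gipc1 disagreed: another of its 4 was lower in every Sle2 mouse (-0.39, SE 0.115), and the mean over the 4 gave a difference of 0.00097.

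**Figure D4:**
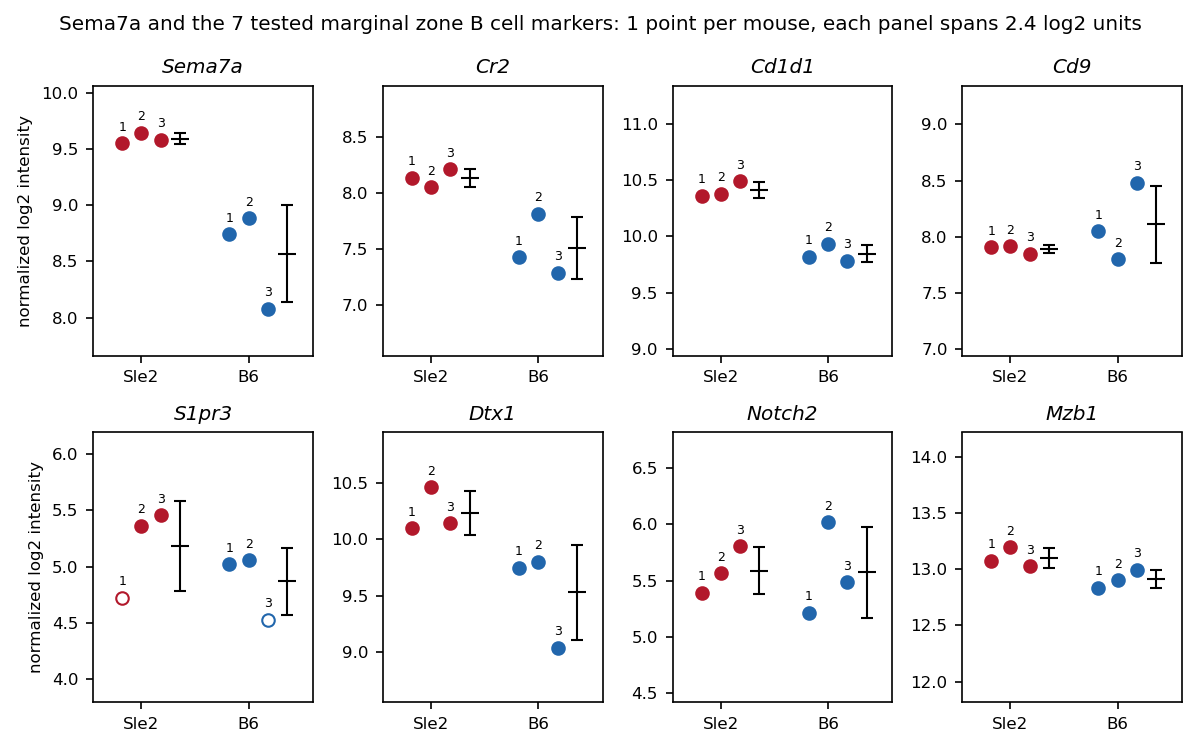
Normalized log2 intensity of Sema7a and of all 7 tested marginal zone B cell markers, with 3 Sle2 mice left and 3 B6 mice right, single mice as numbered points (filled where detected) and bars for the mean and SD. Cr2, Cd1d1, Dtx1 and Mzb1 were higher in every Sle2 mouse, as was Sema7a, while Cd9, S1pr3 and Notch2 overlapped. Over all tested genes, 14.7% were higher in Sle2 without overlap.

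Marginal zone B cells sit at the border of the splenic white pulp and respond early to blood-borne antigens. Of 8 markers of this subset, 7 were tested and 6 had a positive difference. By limma 1 of them, Cd1d1, was called (0.56, SE 0.0961, adjusted p = 0.0391), against 1.04% of all tested genes. The summed level of the 7 was 11426 to 12598 in Sle2 mice and 9463 to 10023 in B6 mice, without overlap. Most of that sum is Mzb1, which differed by 0.19 (SE 0.0982, adjusted p = 0.362). Cr2 (0.62), the complement receptor, and Dtx1 (0.71), a Notch pathway gene, had an adjusted p of 0.0878 and 0.148. Among B6 mice, Cr2, Dtx1, Cd1d1 and S1pr3 were lowest in mouse 3, as was Sema7a. Cd9 (8.48) and Mzb1 (12.99) were highest there, and Notch2 was lowest in mouse 1. The strain differences of Cr2 and Dtx1 sat beside a negative one for Cd9 (-0.22), and the single S1pr1 probe was detected on no array. The part of these cells in the Sema7a difference was not tested.

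Markers of other cell types were present at levels that differed between mice. The 8 monocyte and macrophage markers summed to 3905 to 6049 in Sle2 mice and 4421 to 5490 in B6 mice. Of 8 dendritic cell markers, 4 were tested, and they summed to 391 to 611 in Sle2 mice and 339 to 491 in B6 mice. Siglech, a marker of plasmacytoid dendritic cells, was at 8.13, 7.24 and 8.10 in Sle2 mice and 7.57, 6.88 and 7.54 in B6 mice. Sema4a, Plxnb2 and Nrp1 shared with Siglech their lowest B6 value in mouse 2. So did Csf1r, Adgre1, Fcgr1, Marco, Spic, Mpeg1, Clec9a and Bst2 of these lists. Cd14 was lowest in B6 mouse 3, Lyz2 in B6 mouse 1, and Xcr1 was highest in B6 mouse 2. Among Sle2 mice, Siglech and Plxnb2 were lowest in mouse 2 and Sema4a in mouse 3, while Nrp1 was nearly level in mice 2 and 3. The 8 tested T cell markers of 12 summed to 1522 to 1768 in Sle2 mice and 1493 to 1612 in B6 mice, and 7 of the 8 had a positive difference. Most of that sum is Cd8b1, the 1 with a negative difference (-0.06). Cd3g (0.41), Zap70 (0.50) and Bcl11b (0.69) were higher in every Sle2 mouse than in any B6 mouse, as were 14.7% of all tested genes. Bcl11b was detected on 3 Sle2 arrays and 1 B6 array, so its difference is not a measured fold. The median difference of the 8 T cell markers was 0.36. Natural killer cell markers summed to 1321 to 1905 in Sle2 mice and 925 to 1601 in B6 mice. Plasma cell markers summed to 3784 to 4405 in Sle2 mice and 3121 to 4370 in B6 mice. In each of these 2 lists all 5 tested markers had a positive difference. Their medians were 0.37 and 0.23, beside 0.31 for the marginal zone markers. Germinal centre markers summed to 1630 to 1942 in Sle2 mice and 1893 to 2053 in B6 mice, and 3 of the 4 tested had a negative difference. The sums of neutrophil, erythroid and platelet markers overlapped between the strains too, and were highest in B6 mouse 3. Most of the erythroid sum is Hba-a1 (0.23). All 3 tested erythroid markers had a positive difference, among them Slc4a1 (1.13, SE 0.281, adjusted p = 0.109, no overlap) and Alas2 (0.76, SE 0.324, adjusted p = 0.278). All 5 tested platelet markers had a negative one. No marker of these lists was called by limma. The part of these cells in the values of Sema4a, Sema4d, Plxnb2 and Nrp1 was not tested. Xist, which is transcribed from the inactive X chromosome, was at 10.93 in Sle2 mouse 3 and 10.13 in B6 mouse 2, and near background in the other mice except B6 mouse 3. There it was 5.89, beside 8.67 for the Y-linked Eif2s3y. With each array's Xist signal in the fit, the Sema7a difference was 1.03 (adjusted p = 0.0746).

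**Figure D5:**
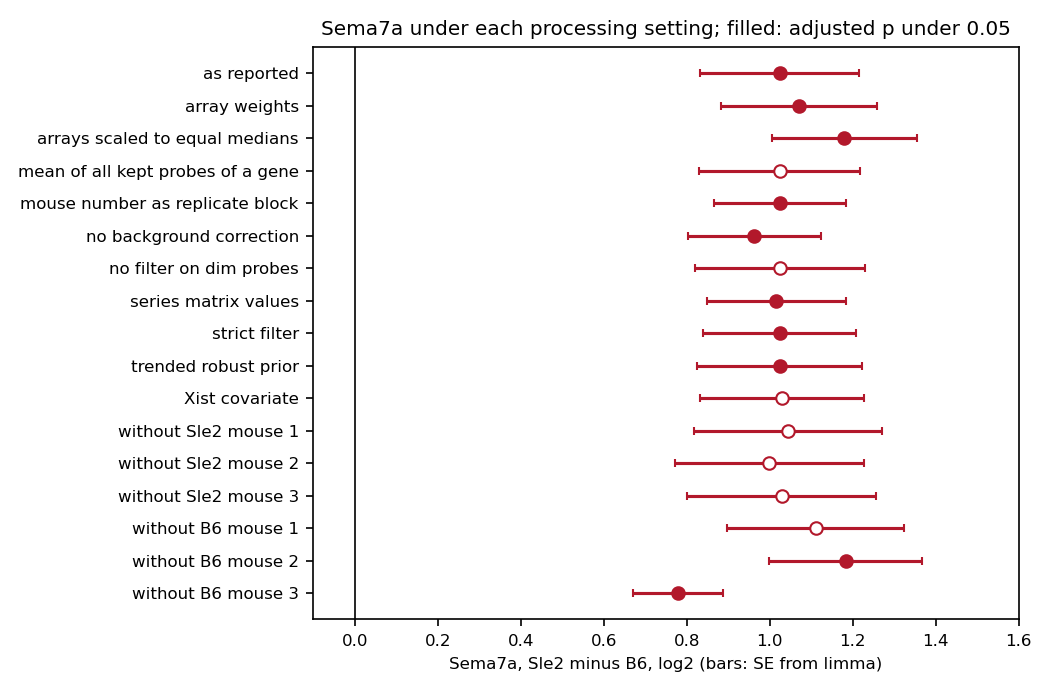
Strain difference of Sema7a (Sle2 minus B6, log2 units), bars giving the SE from limma, under the reported processing and 16 alternatives. All 17 estimates lie between 0.78 and 1.18, and filled points had an adjusted p under 0.05.

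The Sema7a difference was positive under all 16 alternatives, from 0.78 to 1.18, while its adjusted p moved across the threshold. It stayed under 0.05 in 9 alternatives and was above it in 7, which were each Sle2 mouse or B6 mouse 1 left out, dim probes kept, probes averaged and the Xist covariate. The lowest adjusted p, 0.0136, came with arrays scaled to equal medians, which also moved the median of all tested genes to 0.14. The highest, 0.164, came without Sle2 mouse 1.

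On chromosome 9, the tested genes next to Sema7a in the order of GRCm38.p6 did not share its difference. Of the 10 nearest, from Ulk3 to Cd276, 0 were called by limma, and their differences ran from -0.20 to 0.14. None of the 10 nearest genes of Sema4a, Sema4b, Sema4d, Plxnb2 or Plxnd1, nor of the 7 of Nrp1, was called.

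The genes most like Sema7a over the 6 arrays were taken as those with the highest Pearson r among the tested genes with an official symbol. They were Lilr4b (r = 0.997), a receptor of the leukocyte immunoglobulin-like family, Crebl2 (0.996), Fntb (0.996), a subunit of farnesyltransferase, Srgap3 (0.992), a GTPase-activating protein of Slit and Robo signalling, and Ing2 (0.990). The most opposite were Mea1 (-0.995), Glyr1 (-0.991) and Ifnab (-0.989). After strain means were subtracted, r was 0.951 to 0.987 for the first 5 and -0.942 to -0.975 for the other 3. In all 8 genes B6 mouse 3 was the lowest or the highest of the 6 mice. The correlations come from 6 points that share their arrays, and were picked from the 9297 tested genes. Lilr4b averaged 9.08 in Sle2 mice and 7.79 in B6 mice, a difference of 1.29 (SE 0.246, adjusted p = 0.0545). Sema5a had an r of 0.955 with Sema7a, and 0.80 after strain means were subtracted.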

How the data were processed

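Biotin-labelled RNA made from splenic B cell total RNA (3 Sle2 and 3 B6 mice) was read on Illumina BeadChips, per the labels. The deposited bead-summary intensities came from GenomeStudio, per the submitters' processing notes, and from their values are linear, not background-subtracted and not normalized. A detection p-value per probe and array stands beside them, per the file headers. The series matrix holds further deposited intensities that are quantile-normalized, from the values. Of 45281 probes, 34885 had 1 gene symbol, 18 several and 10378 none in the platform annotation; 34807 of these matched a RefSeq table of GRCm38.p6.

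Intensities were background-corrected with normexp (offset 16, 936 negative controls recovered from the detection p-values), then quantile-normalized on the log2 scale by neqc (limma 3.58.1, R 4.3.3). The filter kept 17861 probes. The brightest kept probe stands for its gene. Strains were compared with lmFit and eBayes, in two-sided tests, and p-values were adjusted by Benjamini-Hochberg across the kept probes. A lower bound replaces the fold where a strain had no detected array. A summed marker level adds the linear normalized values, less the offset. Named pathway genes are the 4 with the smallest p of each list and any called one; Cd72, Itga1 and the cell markers were added for their roles. The fit was tested on simulated data. Precision is limited by the number of arrays. P-values weigh the strain difference against the spread between these mice, as estimated by eBayes over the kept probes. The labels do not say whether mice were littermates. The members and lists were chosen with earlier results of these data known. Probe and protein sequences were not used here. Alternatives were other background correction, scaling, filters, priors, weights, probe averaging, a mouse-number block, an Xist covariate, a looser threshold and each mouse left out.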

Additional observations from a re-analysis of the deposited data

Results flagged for a closer look

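The middle Sema7a probe, which did not enter the fit, was detected in 2 of 3 Sle2 mice and in 0 of 3 B6 mice, a signal outside the compared probes and above the B6 level. Its means were 5.06 ± 0.43 in Sle2 and 4.50 ± 0.12 in B6 (SD, n = 3 each), 0.56 apart on the log2 scale. The strains overlapped: Sle2 mouse 2, where it was not detected, was at 4.59, and B6 mouse 2 at 4.64. The B6 mean is a value not above background, so the gap is not a measured fold.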

How the results depend on the processing

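Sema7a, at 1.02 on the log2 scale, was no longer called when dim probes were kept (1.02, adjusted p = 0.147), with the mean of all kept probes, which leaves its value at 1.02 and changes how many features are adjusted (adjusted p = 0.0618), or with the Xist covariate (1.03, adjusted p = 0.0746). With single mice left out it ran from 0.78 to 1.18 and missed the threshold when any Sle2 mouse was left out (0.156 to 0.164 as adjusted p) and when B6 mouse 1 was (adjusted p = 0.0552). The cause was not tested. Called genes numbered 97, and 250 at an adjusted p under 0.1, 245 with equal medians (219 higher and 26 lower, against 61 and 36), 173 without background correction, 187 with the series matrix values, 285 with a trended robust prior, 56 without the filter and 51 with the Xist covariate. Leaving out single mice gave 28 to 143. Pathway genes called numbered 0, and 2 at an adjusted p under 0.1, with equal medians, with the background left in and in the quantile-normalized deposited values, and 1 with a trended robust prior. With single mice left out they numbered 0 to 1. Sema7a minus class 4, at 0.91, ran from 0.66 to 1.13 over the 10 alternatives run, moves under its B6 SD of 0.47 and, at both ends, over its Sle2 SD of 0.07.

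The mouse number as a replicate block left Sema7a at 1.02 (adjusted p = 0.0468) and called 72 genes and 0 pathway genes. Deviations of same-numbered mice correlated at 0.267, 0.170 and 0.0885 over genes. Each mouse correlated best with its own number, a hint from the data and not from the design. For Sle2 mouse 3 the margin was narrow, at 0.0885 with B6 mouse 3 and 0.0600 with B6 mouse 2. A slide block was not run, because the headers name no slide.

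Small differences that did not pass turned sign under some settings. With arrays scaled to equal medians, Tyrobp was at 0.0076, Itgb1 at 0.056 and Sema4f at 0.020, and with array weights Itgb1 was at 0.0060 and Sema4f at 0.0042. With single mice left out, Sema4a ran from -0.059 to 0.43, Nrp1 from -0.013 to 0.25, Havcr2 from -0.024 to 0.34, Itgb1 from -0.13 to 0.071 and Sema4f from -0.096 to 0.047.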

Other observations

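Sema5a was not alone at its place on chromosome 15. The tested genes next to it in the order of GRCm38.p6 include Snhg18, a long noncoding RNA and host of the small nucleolar RNA gene Snord123. Snhg18 was higher in Sle2 by 0.91 (SE 0.150) and was called by limma (adjusted p = 0.0358). Snord123 was at 0.90 (SE 0.20, adjusted p = 0.0824) and Sema5a at 1.06 (SE 0.220, adjusted p = 0.0721). The remaining genes among the 10 nearest ranged from -0.26 (Rpl30) to 0.51 (Erich5), and none of those was called. This run was chosen after its values were seen.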
